A study of Homo sapiens with 6 samples.

Results

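Interferon-stimulated genes were examined as a set of 39 genes, chosen by name from the 58381 gene IDs of the table, in MCF10AT1. MCF10AT1 is a premalignant derivative of the human mammary epithelial line MCF10A and carries an activated HRAS oncogene. All 39 symbols were found under GENCODE 29 names. Flow sorting on the surface proteins CD24 and CD44 gave a CD24low/CD44high fraction, named CSC in the table, and a CD24high/CD44+ fraction, named Bulk, each with 3 libraries of rRNA-depleted total RNA. The series is about RUNX factors in breast cancer stem cells, and the comparison asks how the CD24low fraction differs from the CD24high one. Both fractions came from 1 line kept in serum-containing DMEM and F12 medium with insulin, EGF, cholera toxin and hydrocortisone, and no interferon treatment is named in the labels. No label states that replicates are separate cultures; the p-values therefore reflect library-to-library spread, which may be technical.

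Interferons are secreted proteins that bind receptors on the cell surface and, through the kinases JAK1 and TYK2, activate transcription factors. A complex that holds STAT2 and IRF9 binds a DNA element called the interferon-stimulated response element (ISRE) near the start of many antiviral genes. Epithelial cells keep a low, interferon-independent level of some of these genes, and raise many of them when they sense viral or misplaced nucleic acid. Their products sense foreign RNA, block virus entry, degrade or sequester RNA, or modify other proteins.

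The genes of the set did not move in 1 direction between the fractions. IFI6, a mitochondrial and endoplasmic reticulum membrane protein, was the gene with the largest difference, 4.65-fold higher in CD24low cells. IFITM1, IFITM2 and IFITM3, membrane proteins that hinder virus entry, had fitted folds of 1.77, 1.82 and 1.85. SAMD9, a cytosolic antiviral factor, was 1.46-fold lower in CD24low cells, and the RNA sensor DDX58 (RIG-I) was 1.35-fold lower. In the main fit limma's adjusted p was 0.088 for IFI6 and higher for the other genes named here. Without CD24low replicate 2 the differences of IFI6 and the IFITM genes were smaller. Differences are in log2 (normalized count + 1), CD24low minus CD24high, and folds are their antilogs; a normalized count is a read count divided by the library's size factor.

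A mean of 10 or more normalized counts over the 6 libraries was required for testing, which 30 of the 39 genes reached and 9 did not. With limma, 0 of 30 passed an adjusted p of 0.05, and 0 of the 16047 genes tested passed in all (0.0%). At an unadjusted limma p below 0.05 there were 9 of 30, which is 30.0% of them, against 13.5% of all tested genes. Of these, 6 were higher in CD24low cells (20.0%, against 6.34% of all tested genes) and 3 were lower (10.0%, against 7.15%). DESeq2 on the recovered reads called 3 of 30 (10.0%, against 2.51% of all tested genes). By its adjusted p IFI6 and IFITM3 rose (2 genes, against 1.36% of all tested genes) and SAMD9 fell (1 gene, against 1.15%). edgeR called 0 of 30 (0.0% of all tested genes), with 9 at an unadjusted edgeR p below 0.05 (30.0%, against 14.1% of all tested genes). The median difference was 0.14 over the 30 genes and -0.01 over all tested genes, with 18 genes above 0 and 12 below. For 7 of 30 genes (23.3%, against 19.5% of all tested genes) the libraries of the fractions did not overlap, 5 with CD24low above (10.2% of all tested genes) and 2 with CD24low below (9.32%). The 9 genes at an unadjusted p below 0.05 became 5 without CD24low replicate 2, 5 without CD24high replicate 2 and 4 without CD24high replicate 1. With DESeq2, leaving out CD24low replicate 2 left 0 calls and leaving out CD24low replicate 3 gave 5. Leaving out CD24high replicate 1 or 3 left 1 DESeq2 call. The share of all tested genes is not given for these left-out fits. Changes in these counts therefore cannot be set apart from changes over all genes. The fits above did not pair libraries by replicate number. With that number as a block, limma's adjusted p called 5 of 30 genes and 716 of all 16047. Whether the numbers mark pairs is not known.

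**Figure D1:**
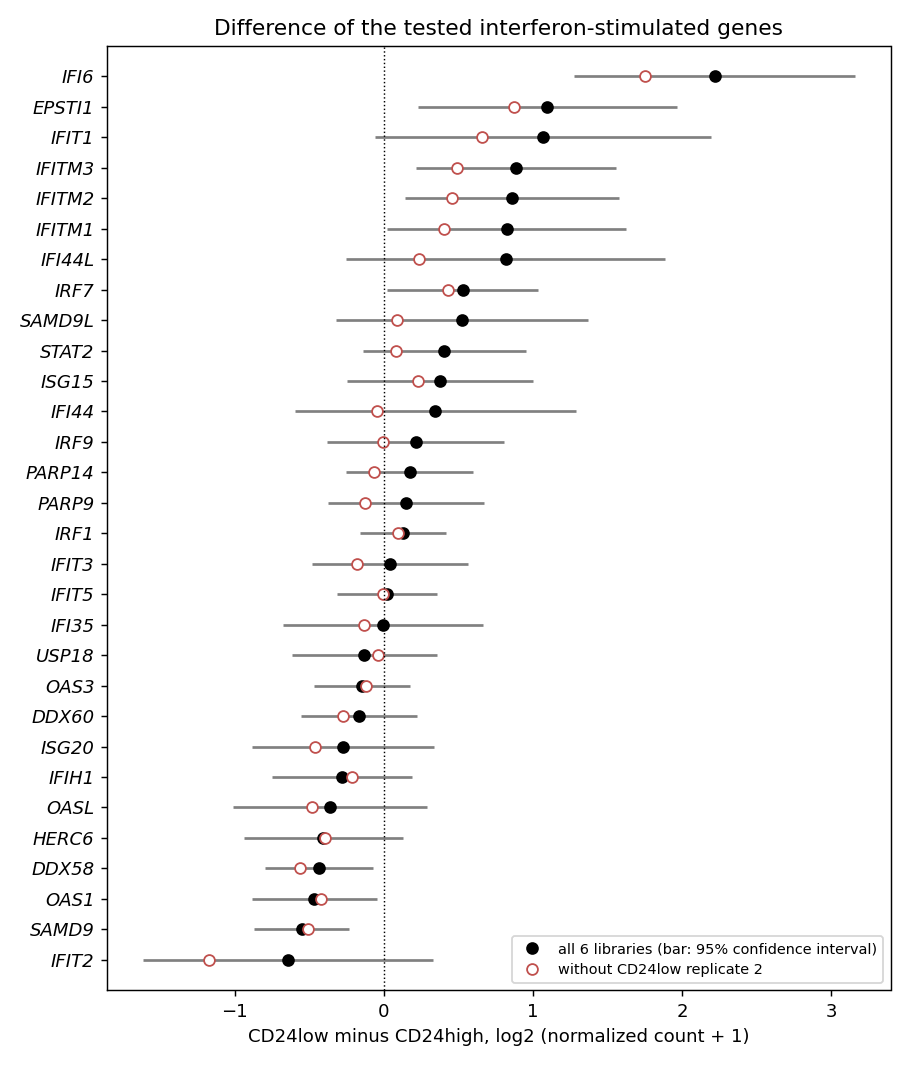
Differences of the 30 tested genes, CD24low minus CD24high in log2 (normalized count + 1). Filled points use all 6 libraries with limma's 95% confidence interval as a bar, open points leave out CD24low replicate 2; IFI6 lies at 2.22 with all libraries and at 1.75 without that replicate, and the lowest filled point is IFIT2 at -0.64.

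One library stood above the others. CD24low replicate 2 was the highest of the 6 libraries for 18 of the 30 genes (60.0%), and for 23.7% of all tested genes. It was the lowest for 2 of 30 (6.67%, against 26.3% of all tested genes). CD24low replicates 1 and 3 were the highest for 0 and 1 of the 30 genes (0.0% and 3.33%, against 9.32% and 13.2% of all tested genes). The median over the 30 genes of the log2 value minus the gene's mean over 6 libraries was -0.15, 0.47 and -0.05 in CD24low replicates 1, 2 and 3. It was -0.13, -0.13 and 0.13 in CD24high replicates 1, 2 and 3. Without CD24low replicate 2 the median difference between the fractions was -0.04 over the 30 genes and 0.0024 over all tested genes. DESeq2 then called 0 of 30, against 1 without CD24high replicate 1 or 3. The share of all tested genes called in these DESeq2 fits is not given, so the loss of calls cannot be assigned to the set.

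**Figure D2:**
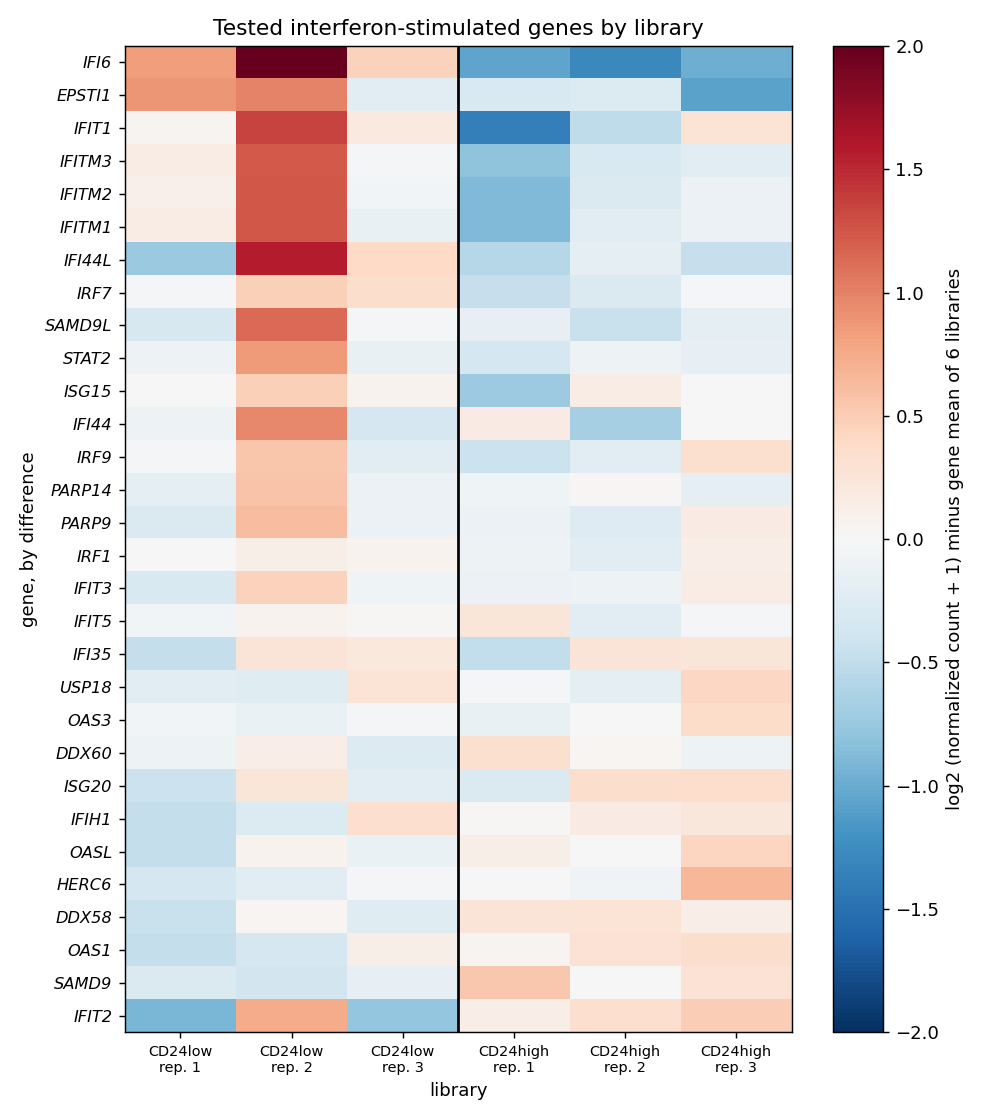
Log2 (normalized count + 1) of each tested gene in each library, minus that gene's mean over the 6 libraries; red is above and blue below the mean, and IFI6 in CD24low replicate 2 reaches the end of the color scale. The CD24low columns stand left of the line; CD24low replicate 2 is the column with the most red, with a median of 0.47.

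Other measures of the libraries were as follows. Recovered reads ran from 24421025 to 26988295 in the CD24low libraries and from 16691162 to 27293177 in the CD24high libraries. Ribosomal RNA genes took 7.15%, 7.07% and 1.97% of the reads in CD24low replicates 1, 2 and 3, and 1.30%, 2.27% and 10.2% in CD24high replicates 1, 2 and 3. This rRNA share includes the mitochondrial rRNA genes. CD24, a sorted marker, had 588, 329 and 1370 normalized counts in CD24low replicates 1, 2 and 3, and 4043, 2325 and 5687 in CD24high replicates 1, 2 and 3. CD24 and CD44 together summed to 7808 to 8882 in CD24low and 10202 to 14680 in CD24high libraries, so the CD44 side of the sort is not shown by these sums. Summed normalized counts of 8 fibroblast markers ran from 887 to 3839 in CD24low and from 52.6 to 359 in CD24high libraries, and DCN made up most of it in every library but CD24high replicate 3, with 985, 3704 and 846 in CD24low replicates 1, 2 and 3 and 146, 325 and 10.2 in CD24high replicates 1, 2 and 3. LUM had 0 reads in all libraries, COL1A2 and THY1 had at most 0.988 normalized counts, and COL1A1 at most 109.8, in CD24low replicate 2. Of 12 leukocyte markers 6 had 0 reads in all libraries, among them CD3D and CD3E, and the sums ran from 141 to 243 in CD24low and from 112 to 148 in CD24high libraries, mostly CD14 and CD68. The 8 basal epithelial markers were all above the filter, with sums of 63259 to 80742 in CD24low and 102184 to 114936 in CD24high libraries. The part of the rRNA share and of the other cell markers in the differences below was not tested. In bulk RNA, a change in the share of cells that express a gene and a change in the level per cell cannot be told apart.

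The promoters of 6 genes are shown because they hold matches to the ISRE core and stand for the patterns described here. In IFI6, IFITM3 and EPSTI1 every CD24low library was above every CD24high library, in SAMD9 every one was below, and in IFITM1 and ISG15 the groups overlapped. Each sequence runs from 170 bases before to 10 bases after the start in RefSeq's GRCh38.p14 annotation, 5′ to 3′ on the gene's strand. Capitals mark matches to the ISRE core, which is GAAA, any 2 bases and GAAA, or on the other strand TTTC, any 2 bases and TTTC.
IFI6 (chr1:27672183-27672362, minus strand): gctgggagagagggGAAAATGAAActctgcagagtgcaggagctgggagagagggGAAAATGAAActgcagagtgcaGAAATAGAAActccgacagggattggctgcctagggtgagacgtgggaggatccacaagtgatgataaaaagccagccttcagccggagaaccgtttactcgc
IFITM1 (chr11:313870-314049, plus strand): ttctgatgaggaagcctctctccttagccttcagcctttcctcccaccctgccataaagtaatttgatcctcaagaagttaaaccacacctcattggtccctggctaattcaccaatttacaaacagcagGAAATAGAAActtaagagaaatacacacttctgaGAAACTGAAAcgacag
IFITM3 (chr11:320851-321030, minus strand): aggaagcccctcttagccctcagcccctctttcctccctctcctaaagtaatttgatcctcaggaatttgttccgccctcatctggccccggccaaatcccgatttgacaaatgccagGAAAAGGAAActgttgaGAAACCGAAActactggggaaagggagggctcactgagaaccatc
EPSTI1 (chr13:42992232-42992411, minus strand): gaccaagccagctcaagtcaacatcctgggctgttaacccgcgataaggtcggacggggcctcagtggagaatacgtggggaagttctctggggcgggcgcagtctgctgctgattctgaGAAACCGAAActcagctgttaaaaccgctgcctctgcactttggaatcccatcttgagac
SAMD9 (chr7:93117970-93118149, minus strand): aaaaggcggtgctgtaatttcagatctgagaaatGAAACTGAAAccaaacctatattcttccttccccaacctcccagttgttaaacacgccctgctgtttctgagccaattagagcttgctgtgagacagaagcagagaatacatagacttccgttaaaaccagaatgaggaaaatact
ISG15 (chr1:1013327-1013506, plus strand): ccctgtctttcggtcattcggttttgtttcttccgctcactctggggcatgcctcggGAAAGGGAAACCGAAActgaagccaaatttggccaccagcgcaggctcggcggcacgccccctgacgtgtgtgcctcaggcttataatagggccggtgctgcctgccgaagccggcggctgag
IFI6 held 3 matches, EPSTI1 and SAMD9 held 1 each, and IFITM1, IFITM3 and ISG15 held 2 each, those of ISG15 overlapping. RefSeq promoters of 300 bases, 250 before to 50 after the start, were given for 32 of the 39 genes, and 22 of the 32 had a match in at least 1 promoter. By promoter the count was 26 of 42 (61.9%), against 1255 of 35116 promoters of all genes (3.57%). A second motif, the GAS core (TTC, any 3 bases, GAA, the same on both strands), was in 12 of the 42 promoters (28.6%), against 7.66% of all promoters. The matches describe these letters and are no measure of binding. DDX58, OAS1, HERC6, STAT2, IRF1 and SAMD9L were among those with no match to the ISRE core in this window. Only exact matches were counted. DDX58 and OAS1, for example, hold GAAA, 1 base and GAAA, which the core with its 2 middle bases does not match.

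The transcription factors of the response had small positive differences. STAT2, which joins IRF9 in the factor that binds the ISRE, had 348, 672 and 336 normalized counts in CD24low replicates 1, 2 and 3, and 291, 349 and 333 in CD24high replicates 1, 2 and 3. The difference of 0.40 (SE 0.24, limma adjusted p = 0.50) was 0.08 without CD24low replicate 2, the one library above the rest. IRF7, which amplifies type I interferon production (ENSG00000185507.19, chromosome 11, 612553 to 615999, minus strand, hg38), had 63.5, 89.8 and 82.3 normalized counts in the CD24low libraries and 46.5, 52.4 and 62.8 in the CD24high libraries. All 3 CD24low libraries lay above all 3 CD24high libraries, CD24low replicate 1 only just above CD24high replicate 3. The difference of 0.53 (SE 0.23) had an unadjusted limma p of 0.041 and an adjusted p of 0.35, and it ran from 0.43 to 0.67 with 1 library left out. IRF9, the DNA-binding partner of STAT2, averaged 111 ± 32.2 normalized counts in CD24low and 95.2 ± 27.1 in CD24high cells (SD, n = 3 each), with a difference of 0.21 that was -0.0080 without CD24low replicate 2. Its value is uncertain, since AL136295.5 covers 48.4% of its exon bases on the same strand. IRF1, an activator of antiviral and immune genes, averaged 576 ± 24.5 and 530 ± 66.5 normalized counts in CD24low and CD24high cells, a difference of 0.13 with a 95% interval from -0.16 to 0.42. The opposite-strand gene AC116366.3 shares 6.01% of its exon bases and had 16602 reads, and whether strand was used in counting is not given in the sources used here.

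The cytosolic RNA helicases were lower in CD24low cells on average. DDX58 (RIG-I), which binds short double-stranded RNA ends and signals to MAVS (ENSG00000107201.9, chromosome 9, 32455705 to 32526324, minus strand), had 173, 243 and 200 normalized counts in CD24low replicates 1, 2 and 3, and 283, 285 and 259 in CD24high replicates 1, 2 and 3. Every CD24low library was below every CD24high library. The difference of -0.44 (SE 0.16) had an unadjusted limma p of 0.023 and an adjusted p of 0.29, with DESeq2's adjusted p also at 0.29. Within libraries of similar rRNA share it was -0.50 (low share, under 5% of reads) and -0.34 (high share). IFIH1 (MDA5), the sensor of long double-stranded RNA, had 144, 165 and 253 normalized counts in the CD24low libraries and 204, 224 and 235 in the CD24high libraries. CD24low replicate 3 was the highest of all 6 libraries while the other CD24low libraries were the lowest. The difference of -0.28 had a 95% interval from -0.75 to 0.19, and it was 0.24 within libraries of low and -0.61 within those of high rRNA share. DDX60, a helicase linked to RIG-I signaling, averaged 194 ± 28.2 in CD24low and 219 ± 32.6 normalized counts in CD24high cells. Its difference of -0.17 (SE 0.17) was -0.45 within libraries of low and 0.11 within those of high rRNA share.

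**Figure D3:**
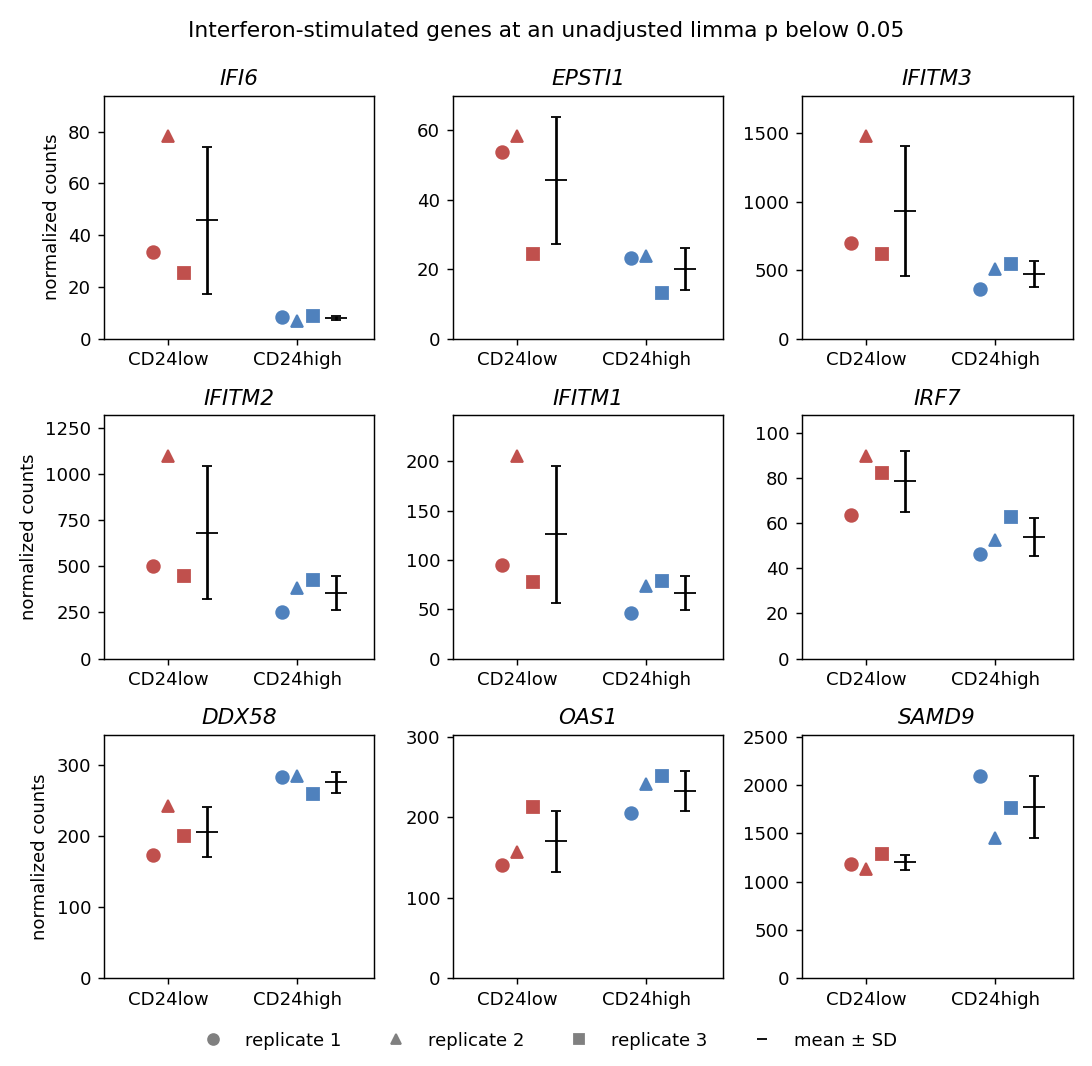
Normalized counts per library of the 9 genes with an unadjusted limma p below 0.05; points are libraries, with replicate 1 as circles, 2 as triangles and 3 as squares, and the black mark is the mean ± SD of 3 libraries. IFI6 lies between 25.5 and 78.3 in CD24low and between 6.92 and 8.77 in CD24high libraries; DDX58, OAS1 and SAMD9 have lower means in CD24low than in CD24high cells.

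The 3 IFITM genes of the chromosome 11 cluster had higher means in CD24low cells. By DESeq2's adjusted p IFITM3 alone of the 3 was called, against 2.51% of all tested genes. Limma called 0 of 3 (0.0% of all tested genes), and the IFITM1 groups overlapped. IFITM3, which blocks fusion of viruses in endosomes (ENSG00000142089.15, chromosome 11, 319669 to 327537, minus strand), had 698, 1478 and 615 normalized counts in CD24low replicates 1, 2 and 3, and 361, 511 and 545 in CD24high replicates 1, 2 and 3. All CD24low libraries were above all CD24high libraries, with CD24low replicate 2 well above the other 5. The difference of 0.88 (SE 0.30, 95% interval 0.22 to 1.55) had a limma adjusted p of 0.25, and DESeq2's adjusted p was 0.036. DESeq2's adjusted p ranged from 0.0038 without CD24low replicate 3 to 0.75 without CD24high replicate 1. It was 0.055 without CD24low replicate 1, 0.50 without CD24low replicate 2, 0.14 without CD24high replicate 2 and 0.37 without CD24high replicate 3.

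IFITM2, its close relative, had 502, 1099 and 450 normalized counts in the CD24low libraries and 251, 383 and 428 in the CD24high libraries. These groups did not overlap either (difference 0.86, SE 0.32, limma adjusted p = 0.30, DESeq2 adjusted p = 0.066). IFITM1, the family member found mostly at the cell surface, had 95.2, 205 and 77.4 normalized counts in the CD24low libraries and 46.5, 73.1 and 78.9 in the CD24high libraries, so that CD24low replicate 3 lay just below CD24high replicate 3. Its difference of 0.82 (SE 0.36) had an unadjusted limma p of 0.045 and an adjusted p of 0.36. Without CD24low replicate 2 the differences of IFITM3, IFITM2 and IFITM1 were 0.49, 0.46 and 0.41. The IFITM genes are not independent measurements. IFITM1 and IFITM2 share 351 exon bases on the same strand, and 12.9% of the 50-base words of IFITM2 transcripts occur in IFITM3 transcripts. BST2 (tetherin), which holds budding virus at the membrane, had at most 5 reads in a library.

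The genes for IFIT proteins, which bind viral RNA ends or the translation machinery, had differences of either sign. At an unadjusted limma p below 0.05 there were 0 of 4, too few genes to tell from the 13.5% of all tested genes. IFIT1, which recognises RNA that lacks a methylated cap, had 15.0, 38.2 and 16.7 normalized counts in CD24low replicates 1, 2 and 3, and 4.98, 9.88 and 17.5 in CD24high replicates 1, 2 and 3. The groups overlapped at CD24high replicate 3, and the difference of 1.07 (SE 0.50) had an unadjusted limma p of 0.061 and an adjusted p of 0.39. It was 0.66 without CD24low replicate 2 and 0.65 without CD24high replicate 1. IFIT2, a partner of IFIT1, had 11.5, 38.2 and 12.7 normalized counts in the CD24low libraries and 24.9, 28.6 and 32.1 in the CD24high libraries. CD24low replicate 2 was the highest and the other CD24low libraries the lowest, so that the difference was -0.64 with all libraries and -1.17 without CD24low replicate 2. The count of IFIT2 is uncertain. AL353751.1 covers 8.68% of its exon bases on the same strand, and opposite-strand LIPA, with 7432 reads, shares 1.58%. IFIT3, which stabilises IFIT1, averaged 87.9 ± 25.4 normalized counts in CD24low and 83.5 ± 8.67 in CD24high cells. IFIT5, which binds RNA with a 5′ phosphate, averaged 357 ± 14.8 and 355 ± 59.1 normalized counts in CD24low and CD24high cells, a difference of 0.02 with an interval from -0.31 to 0.36. Per kilobase of exon, the level of IFIT5 was 89.0 normalized counts in CD24low and 88.4 in CD24high cells, against 5.05 and 2.34 for IFIT1 in CD24low and CD24high cells.

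The OAS genes, whose products make 2′-5′ oligoadenylates that activate RNase L, lie side by side on chromosome 12 but were present at very different levels. OAS1 (chromosome 12, 112906777 to 112933222, plus strand) had 141, 157 and 213 normalized counts in CD24low replicates 1, 2 and 3, and 205, 241 and 251 in CD24high replicates 1, 2 and 3. CD24low replicate 3 overlapped with CD24high replicate 1, and the other CD24low libraries lay below. The difference of -0.47 (SE 0.19) had an unadjusted limma p of 0.033 and an adjusted p of 0.32, and was -0.06 within libraries of low and -0.75 within those of high rRNA share. OAS3 averaged 645 ± 20.3 normalized counts in CD24low and 722 ± 134 in CD24high cells (difference -0.15, SE 0.14). OAS2, which lies downstream of OAS3, had at most 2 reads in any library. Per kilobase of exon the levels of OAS1, OAS2 and OAS3 were 34.4, 0.155 and 78.2 normalized counts in CD24low cells and 47.0, 0.130 and 87.5 in CD24high cells. OASL, an OAS-like protein without that enzyme activity, averaged 21.0 ± 4.07 and 27.2 ± 4.41 normalized counts in CD24low and CD24high cells, a difference of -0.36 (SE 0.29). The antiviral GTPases MX1 and MX2 were near the limit of detection, with 3 to 9 reads of MX1 in each library and 1 read of MX2 over all 6.

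**Figure D4:**
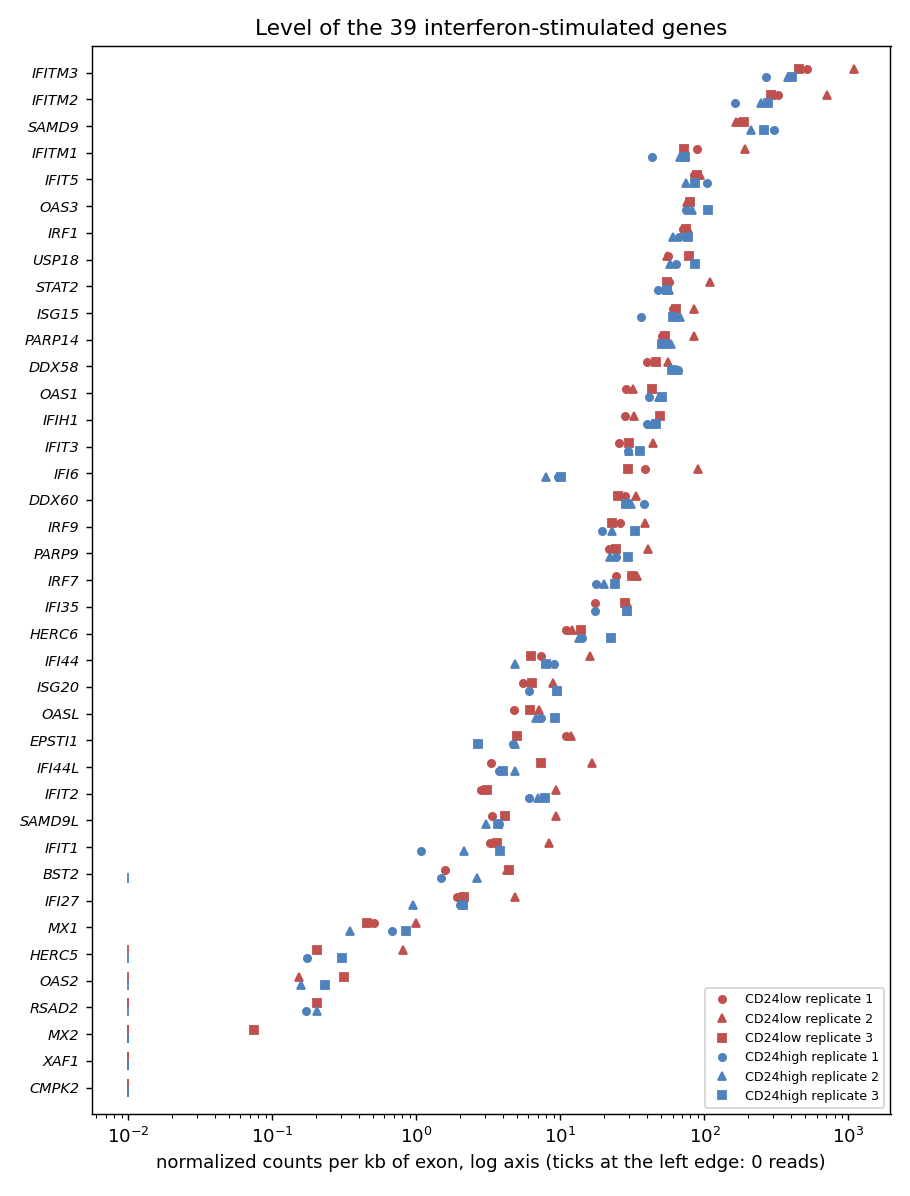
Level of all 39 genes per library in normalized counts per kilobase of union exon, on a log axis, in order of their mean; red is CD24low and blue CD24high, symbols give the replicate, and ticks at the left edge mark libraries with 0 reads. IFITM3 stands highest, and XAF1 and CMPK2 have 0 reads in all 6 libraries.

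The ISG15 system, which attaches a ubiquitin-like protein to targets, was represented unevenly. ISG15, the modifier itself, had 57.3, 79.3 and 59.7 normalized counts in CD24low replicates 1, 2 and 3, and 34.0, 63.2 and 57.0 in CD24high replicates 1, 2 and 3. The groups overlapped, and the difference of 0.37 had a 95% interval from -0.25 to 1.00 and was 0.11 without CD24high replicate 1. HERC5, the main ISG15 ligase in human cells, had between 0 and 4 reads in a library. HERC6, a related gene next to it on chromosome 4, averaged 71.2 ± 8.52 normalized counts in CD24low and 96.7 ± 28.9 in CD24high cells. Its difference of -0.41 (SE 0.24, limma adjusted p = 0.49) was 0.00 within libraries of low and -0.96 within those of high rRNA share. USP18, which removes ISG15 and dampens receptor signaling, averaged 134 ± 28.2 and 147 ± 32.7 normalized counts in CD24low and CD24high cells (difference -0.13, SE 0.22). USP18 is uncertain because 23.0% of its 50-base words also occur in USP41.

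SAMD9 and SAMD9L, neighboring paralogs on chromosome 7 that inhibit virus replication and cell growth, differed in level and in the sign of their difference. SAMD9 (ENSG00000205413.7, chromosome 7, 93099513 to 93118023, minus strand) had 1182, 1127 and 1286 normalized counts in CD24low replicates 1, 2 and 3, and 2095, 1450 and 1767 in CD24high replicates 1, 2 and 3. Every CD24low library was below every CD24high library. The difference of -0.55 (SE 0.14, 95% interval -0.87 to -0.23) had a limma adjusted p of 0.17 and a DESeq2 adjusted p of 0.021. With 1 library left out, the difference ran from -0.68 to -0.42. DESeq2's adjusted p was 0.020 without CD24low replicate 3 and 0.0026 without CD24high replicate 2. It was 0.17 without CD24low replicate 1, 0.16 without CD24low replicate 2, 0.17 without CD24high replicate 1 and 0.092 without CD24high replicate 3. SAMD9L had 23.8, 66.9 and 29.4 normalized counts in the CD24low libraries and 26.6, 21.7 and 26.3 in the CD24high libraries. Its difference of 0.53 (SE 0.38, limma adjusted p = 0.57) was 0.09 without CD24low replicate 2. Per kilobase of exon the level of SAMD9 was 175 normalized counts in CD24low and 258 in CD24high cells, and that of SAMD9L was 5.61 and 3.48 in CD24low and CD24high cells.

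PARP9 and PARP14, members of the ADP-ribosyltransferase family, did not pass the test. PARP14 had 533, 894 and 557 normalized counts in CD24low replicates 1, 2 and 3, and 568, 613 and 529 in CD24high replicates 1, 2 and 3. PARP9 averaged 258 ± 90.8 normalized counts in CD24low and 226 ± 34.9 in CD24high cells. Their differences were 0.18 and 0.15 with all libraries, and -0.06 and -0.12 without CD24low replicate 2. Opposite-strand DTX3L, with 3840 reads, shares 2.43% of the exon bases of PARP9.

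Among the IFI genes, IFI6 had the largest difference of the whole set. IFI6 (ENSG00000126709.14, chromosome 1, 27666061 to 27672218, minus strand) had 33.5, 78.3 and 25.5 normalized counts in CD24low replicates 1, 2 and 3, and 8.30, 6.92 and 8.77 in CD24high replicates 1, 2 and 3. The lowest CD24low library, replicate 3, stood above every CD24high library. The difference was 2.22 (SE 0.42, 95% interval 1.28 to 3.16), at rank 88 from the highest among the 16047 tested genes. Limma's adjusted p was 0.088 and DESeq2's 0.0020. The difference was 1.63 within libraries of low and 2.42 within those of high rRNA share, and 1.75 without CD24low replicate 2. DESeq2's adjusted p was 0.14 without CD24low replicate 2 and from 0.00033 to 0.038 without any other library. The values rest on few reads, 26 to 82 in a CD24low library and 6 to 10 in a CD24high library.

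IFI44L, which lies beside IFI44 on chromosome 1 and is a feedback regulator of the response, had 33.5, 171 and 75.4 normalized counts in CD24low replicates 1, 2 and 3, and 38.2, 49.4 and 40.9 in CD24high replicates 1, 2 and 3. CD24low replicate 1 was the lowest of the 6 libraries. The difference of 0.82 (SE 0.48, limma adjusted p = 0.49) was 0.24 without CD24low replicate 2 and 1.40 without CD24low replicate 1. IFI44 averaged 20.1 ± 10.8 normalized counts in CD24low and 14.7 ± 4.35 in CD24high cells (difference 0.35, SE 0.42). IFI35, a regulator of immune signaling, averaged 49.2 ± 12.8 and 49.4 ± 13.3 normalized counts in CD24low and CD24high cells, with an interval for the difference from -0.68 to 0.67. IFI27, a relative of IFI6 at mitochondria, had 7.93, 20.1 and 8.82 normalized counts in the CD24low libraries and 8.30, 3.95 and 8.77 in the CD24high libraries. It fell below the filter.

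The remaining effectors were mostly at the limit of detection. EPSTI1, an epithelial-stromal interaction gene with antiviral activity (chromosome 13, 42886388 to 42992271, minus strand), had 53.8, 58.3 and 24.5 normalized counts in CD24low replicates 1, 2 and 3, and 23.2, 23.7 and 13.2 in CD24high replicates 1, 2 and 3. CD24low replicate 3 lay barely above CD24high replicate 2. The difference of 1.10 (SE 0.39) had an unadjusted limma p of 0.018, an adjusted p of 0.27 and a DESeq2 adjusted p of 0.19. Where the rRNA share was low it was 0.06, and where the share was high 2.01. ISG20, a 3′ to 5′ RNA exonuclease, averaged 50.8 ± 12.6 in CD24low and 61.7 ± 14.6 normalized counts in CD24high cells (difference -0.27, SE 0.27). RSAD2 (viperin), which makes a chain-terminating nucleotide, had 1 read in CD24low and 2 in CD24high cells over 3 libraries each. Its neighbor CMPK2, a nucleotide kinase, and the apoptosis gene XAF1 were without a read in any library. A count of 0 leaves room for 3 reads, or 2.64 to 2.94 normalized counts in the CD24low libraries and 2.49 to 4.38 in the CD24high libraries, for counting error alone.

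Genes upstream of the set were read from lists of pathway members. Of 21 interferon ligand genes 17 had 0 reads in all libraries, IFNB1 and every IFNA gene of the list among them. IFNE, an interferon of epithelia that is not induced by virus, was the 1 ligand above the filter, with 5.29, 22.0 and 4.90 normalized counts in CD24low replicates 1, 2 and 3, and 4.98, 19.8 and 7.31 in CD24high replicates 1, 2 and 3. Replicate 2 was the highest library of either fraction. IFNL1 had 0 reads in CD24low and 2 reads in CD24high libraries.

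IFNAR2, IFNGR1, IFNGR2 and IL10RB had higher average values in CD24low cells, and IFNAR1 differed little. Of 10 tested genes for receptors and JAK-STAT signaling 8 had a positive difference (median 0.22), 2 were at an unadjusted limma p below 0.05 (20.0%, against 13.5% of all tested genes), both higher (20.0%, against 6.34%), and 0 passed limma's or DESeq2's adjusted p. IFNAR2, the signaling chain of the type I receptor, had 223, 315 and 214 normalized counts in the CD24low libraries and 119, 166 and 206 in the CD24high libraries, with all CD24low libraries on top (0.62, SE 0.23, limma adjusted p = 0.29, and 0.41 without CD24high replicate 1). IFNAR1, the other chain, averaged 924 ± 93.5 and 922 ± 78.5 normalized counts in CD24low and CD24high cells, with an interval for the difference from -0.27 to 0.27. IFNGR1, the ligand-binding chain of the type II receptor, averaged 729 ± 210 and 529 ± 35.7 (0.43, SE 0.18, limma adjusted p = 0.36), and its partner IFNGR2 averaged 870 ± 201 and 673 ± 133 (0.36, SE 0.19) normalized counts in CD24low and CD24high cells. Without CD24low replicate 2 the differences of IFNGR1 and IFNGR2 were 0.20 and 0.18. IL10RB, a chain of the lambda interferon receptor, had a difference of 0.37 (SE 0.17), while its partner IFNLR1 stayed below the filter. CD24low replicate 2 was the highest library for 7 of the 10 genes, and for 23.7% of all tested genes.

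Of 13 tested genes of nucleic acid sensing, 7 had a positive difference and 6 a negative one (median 0.00), 2 were at an unadjusted limma p below 0.05 (15.4%, near the 13.5% of all tested genes; 1 higher and 1 lower), and 0 passed limma's or DESeq2's adjusted p. CGAS, the cytosolic DNA sensor, had 349, 305 and 381 normalized counts in CD24low replicates 1, 2 and 3, and 520, 442 and 405 in CD24high replicates 1, 2 and 3. Every CD24low library was below every CD24high library, with a difference of -0.40 (SE 0.15, limma adjusted p = 0.29). TMEM173 (STING), the adaptor that CGAS signals through, had 483, 692 and 385 normalized counts in the CD24low libraries and 326, 429 and 326 in the CD24high libraries. Its difference of 0.50 (SE 0.21, limma adjusted p = 0.35) was 0.27 without CD24low replicate 2, 0.04 within libraries of low and 0.82 within those of high rRNA share. TREX1, which degrades cytosolic DNA, averaged 150 ± 6.65 and 113 ± 25.9 normalized counts in CD24low and CD24high cells (0.43, SE 0.19), and EIF2AK2 (PKR), the double-stranded RNA-dependent kinase, had a difference of -0.16 (SE 0.11).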

How the data were processed

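RNA was measured in 6 libraries, 3 per sorted fraction, grouped by their titles. The deposited signal per gene is, by the table's own name, counts normalized by DESeq2, that is gene counts over a size factor per library. The submitters' processing notes also list STAR 2.5.2, R 3.5.0 and hg38. No source used here gives the read counter, its strand setting or the annotation. Per the labels' protocols the libraries were stranded total RNA depleted of rRNA. All values were whole multiples of 1 step per library within 0.1 reads (100% of values), so whole reads were recovered. 1 read was worth 0.830 to 1.46 normalized counts; a count of 0 allows 3 reads per library, for counting error only.

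IDs were matched without version to GENCODE 29 (58261 of 58381). The test was limma 3.58.1 (R 4.3.3) two-sided, with its trend option, on log2 (normalized count + 1) of 16047 genes (mean 10 or more), with Benjamini-Hochberg adjustment at 0.05. DESeq2 1.42.0 and edgeR 4.0.16 used the recovered reads for these genes. Lengths are union exons, and exon overlaps and shared words of 50 bases came from GENCODE 29. Libraries above 5% of reads in rRNA genes (CD24low replicates 1 and 2, CD24high replicate 3) were called high share, which leaves 1 library on a side of each within-share value, so those have no test. Mitochondrial rRNA genes were counted in this share. The within-group chi-square per degree of freedom between replicates was 26.9 or more, so each library was counted once.

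The members and gene lists were chosen with earlier results of these data known. The text names all 39 members, the 4 tested genes with the smallest p of each pathway list, IFNB1, IFNL1 and the receptors; other genes named were chosen after their values were seen. Most other listed genes are counted without being named, and some results are not reported here. On simulated counts for this comparison (16047 genes, 200 changed), a fold of 2 was recovered in 60.5% of changed genes by limma, 62.0% by edgeR and 68.0% by DESeq2, with 15, 17 and 34 false calls. A fold of 4 was recovered in 95.0%, 95.5% and 94.5%, with 13, 14 and 33 false calls. These rates are over all changed genes and were not split by level. How they change where 1 library stands apart, as CD24low replicate 2 did, was not tested. In the real data limma called 0 of 16047 genes, and IFI6, with a fitted fold of 4.65, had an adjusted p of 0.088. The rates are therefore no measure of power for the genes of the set. The 20 alternatives changed the pseudocount, filter, trend, tool, scaling, replicate block, rRNA split and libraries, and 6 fits of DESeq2 without 1 library each were added after the data were seen. Figures were drawn with matplotlib 3.10.9 in Python 3.11.15.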

Additional observations from a re-analysis of the deposited data

How the results depend on the processing

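Pseudocounts of 0.5 and 5 left the signs and calls of the 30 tested genes as they were. Leaving aside the differences within libraries of similar rRNA share, which are not fits, 22 of the 30 kept their sign in every fit tried. Limma's adjusted calls among them were 0, against 1 with no filter (IFI6), 3 by DESeq2, 5 under the replicate block with either limma or edgeR, and 0 to 1 with 1 library left out (1 without CD24low replicate 3). Over all genes the calls were 0, against 164 with no filter, 402 by DESeq2, 716 with limma's replicate block, 705 with edgeR's, 103 without both libraries numbered 3, and 0 to 366 (without CD24low replicate 3) with 1 library left out. The 5 genes called with the block were IFI6, EPSTI1, IFITM2, IFITM3 and SAMD9. Column names give the libraries of both fractions the same replicate numbers, but do not say whether a number marks a shared sort. Deviations of same-numbered libraries correlated at 0.27, 0.30 and 0.05 over genes. CD24low replicate 3 correlated at 0.075 with CD24high replicate 1, slightly more than with CD24high replicate 3. The numbers were therefore not taken as pairs, but so small a margin cannot decide whether they are. The counts of calls depend on this choice.

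The count of 9 at an unadjusted p below 0.05 was 5 with a mean of at least 50, 5 with the rRNA split as a covariate, and 4 to 9 with 1 library left out (4 without CD24high replicate 1, 5 without CD24low replicate 2 or CD24high replicate 2). DESeq2's 3 calls became 0 (without CD24low replicate 2) to 5 (without CD24low replicate 3). For the alternative fits of this paragraph the share of all tested genes is not given. Changes in the counts therefore cannot be set apart from changes over all genes. The 7 genes whose groups did not overlap became 9 to 12 (CD24low replicate 3) with 1 library left out, with 11 without CD24high replicate 2 or 3, and 15 without both libraries numbered 3, where fewer libraries make an overlap less likely; this count uses no fit, so other tests do not apply. The median difference ran from -0.04 (without CD24low replicate 2) to 0.25, and was 0.08 and 0.03 within libraries of low and high rRNA share. Over the pathway lists, 12 of the 64 tested genes outside the set were at an unadjusted p below 0.05 (13.5% of all tested genes were), against 7 with the rRNA split, 19 with the replicate block in limma or edgeR, and 5 (without CD24low replicate 2 or CD24high replicate 1) to 14 with 1 library left out.

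Signs near 0 changed. With 1 library left out the difference ran from -0.25 to 0.23 for IFI35, -0.046 to 0.60 for IFI44, -0.18 to 0.21 for IFIT3, -0.088 to 0.15 for IFIT5, -0.30 to 0.042 for USP18, -0.062 to 0.31 for PARP14, -0.12 to 0.33 for PARP9, -0.0080 to 0.43 for IRF9, -0.73 to 0.43 for IFNE, -0.042 to 0.73 for SOCS1 and -0.077 to 0.067 for IFNAR1. IFI35 was 0.00074 with DESeq2, 0.0018 with edgeR and 0.0074 without both libraries numbered 3. IFIT3 was -0.028 with the rRNA split, IFIT5 -0.0075 with total scaling, IFNE 0.0019 with DESeq2 and 0.11 without both libraries numbered 3, and IFNAR1 -0.028 with total scaling and -0.024 with the rRNA split. Some genes that kept their sign in every fit changed it within libraries of similar rRNA share. IFIH1, HERC6 and OAS3 were 0.24, 0.0044 and 0.026 at low share. At high share DDX60 was 0.11 and IRF1 -0.066. The cause of these changes was not tested. The 9 genes below the filter had at most 21 reads in a library, and whether depth accounts for this was not tested.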

Other observations

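A wider list of 46 further interferon-stimulated genes held 33 tested genes, with 19 positive and 14 negative differences and a median of 0.04. At an unadjusted limma p below 0.05 there were 2 higher and 5 lower in CD24low cells (6.06% and 15.2%, against 6.34% and 7.15% of all tested genes), and 0 passed limma's adjusted p. UBE2L6, the enzyme that hands ISG15 to its ligases, had 14.1, 61.1 and 9.80 normalized counts in CD24low replicates 1, 2 and 3, and 0.830, 6.92 and 2.92 in CD24high replicates 1, 2 and 3, so that the groups did not overlap. Its difference was 2.49 (SE 0.73, limma adjusted p = 0.20), and DESeq2, by which UBE2L6 rose, gave an adjusted p of 0.036, and 0.75 without CD24low replicate 2. TRIM22, an antiviral ubiquitin ligase, had 207, 358 and 302 normalized counts in the CD24low libraries and 509, 417 and 459 in the CD24high libraries, all CD24low libraries being below (-0.70, SE 0.20, limma adjusted p = 0.19). TDRD7, an inhibitor of autophagy, had 350, 370 and 376 normalized counts in the CD24low libraries and 459, 442 and 465 in the CD24high libraries, also without overlap (-0.32, SE 0.12, limma adjusted p = 0.29). APOL6, an apolipoprotein L, had a difference of -0.44 (SE 0.15) that was -0.09 within libraries of low and -0.68 within those of high rRNA share. CD24low replicate 2 was the highest library for 16 of the 33 genes (48.5%, against 23.7% of all tested genes).

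Of 9 tested negative regulators, a list that shares ISG15 and USP18 with the main set, 6 had positive differences (median 0.15) and 1 was at an unadjusted limma p below 0.05 (11.1%, below the 13.5% of all tested genes). That gene was SOCS3, a feedback inhibitor of JAK kinases, with 154, 276 and 161 normalized counts in CD24low replicates 1, 2 and 3, and 120, 146 and 83.3 in CD24high replicates 1, 2 and 3. All CD24low libraries were above all CD24high libraries (0.74, SE 0.27, limma adjusted p = 0.30), and the difference was 0.47 without CD24low replicate 2, 0.27 within libraries of low and 1.30 within those of high rRNA share. SOCS1, a related inhibitor, and PIAS1, a SUMO ligase, had differences of 0.37 (SE 0.43) and 0.19 (SE 0.17).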
